A study of Mus musculus with 15 samples.

Results

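The livers of mice given a single dose of doxorubicin were compared directly with the livers of mice given a single dose of cisplatin, both 1 day after the injection. The comparison rested on 10 of the 15 poly(A) RNA-seq libraries of the series, 5 per drug, and the other 5 libraries came from saline-treated mice. Of the 21878 genes listed, 10332 reached at least 1 FPKM (fragments per kilobase of transcript, scaled to library size) in at least 5 of the 10 drug libraries and were tested. The remaining 11546 genes did not pass that filter.

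All mice were 8-week-old C57BL/6J males, and the study asked about hepatic IRE1α and GDF15-driven anorexia under chemotherapy. Both drugs were injected into the peritoneum once at 10 mg/kg body weight, cisplatin as 1 mg/mL in 0.9% saline and doxorubicin as 2 mg/mL in sterile water. At those concentrations the injected volume works out at 10 mL/kg for cisplatin and 5 mL/kg for doxorubicin. Drug, vehicle and volume therefore cannot be told apart. The doxorubicin libraries are called doxorubicin 1 to 4 and the unnumbered doxorubicin library, whose column in the table carries a number that no label has. The labels of these 5 samples name doxorubicin and its dose, whereas a closing remark in the series' design text states that information on doxorubicin treatment is lacking. The sample labels were followed, so every doxorubicin value rests on them. The labels number the livers but do not say which litters, cages or days they came from. The p-values therefore weigh each difference only against the spread between these samples, which the limma fit took from all 15 libraries.

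Cisplatin is a platinum compound that forms cross-links between DNA bases, and doxorubicin is an anthracycline that intercalates into DNA, traps topoisomerase II on it and undergoes redox cycling. The liver takes up and metabolises both drugs. Hepatocytes answer cytokines with acute-phase proteins, interferons with antiviral genes, and misfolded protein in the endoplasmic reticulum with chaperones through IRE1α (Ern1), PERK and ATF6. They also make cholesterol, and most of the body's bile acids and urea. GDF15 is a hormone released by stressed cells that acts on the hindbrain to reduce food intake.

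Reads assigned to genes numbered 37.6 to 50.7 M per library after doxorubicin, 25.3 to 31.0 M after cisplatin and 27.6 to 34.7 M after saline. Depth and drug therefore did not overlap. When the recovered reads of every library were thinned to the depth of the shallowest drug library, 1993 of the 2111 called genes that were still tested kept their call and direction. Albumin (Alb) lay between 26894 and 39826 FPKM in the 10 drug libraries and all 14 hepatocyte markers were tested, with 1 higher and 1 lower after doxorubicin. Saline 2 was the highest or lowest saline library in 73.1% of genes, and the unnumbered doxorubicin library had the lowest Alb and the largest FPKM sum, 592465 against 541124 to 558219 in the other 14. Without saline 2 the calls were 1166 higher and 1488 lower, without the unnumbered doxorubicin library 806 and 1058, and without both 1060 and 1466.

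At an adjusted p under 0.05 (limma on log2(FPKM + 1), Benjamini-Hochberg over all tested genes), 939 genes were higher after doxorubicin than after cisplatin, 9.09% of those tested, and 1177 were lower, 11.4%. The difference reached 1 on the log2 scale in 135 of the higher and 87 of the lower genes. All 5 doxorubicin values lay above all 5 cisplatin values in 719 genes (6.96%) and below them in 978 genes (9.47%). Over all tested genes the median difference was -0.02, with quartiles of -0.18 and 0.14. Against saline in the same fit, cisplatin had 637 genes higher (6.17%) and 485 lower (4.69%), and doxorubicin had 1519 higher (14.7%) and 1744 lower (16.9%). These comparisons share libraries and are given side by side only. Of all tested genes 20.5% were called in either direction, the share against which the counts of the gene groups stand. Of the 41 tested genes under 1 FPKM in every cisplatin library 40 were higher; they passed the filter only through the doxorubicin libraries, so their count is no independent result.

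**Figure D1:**
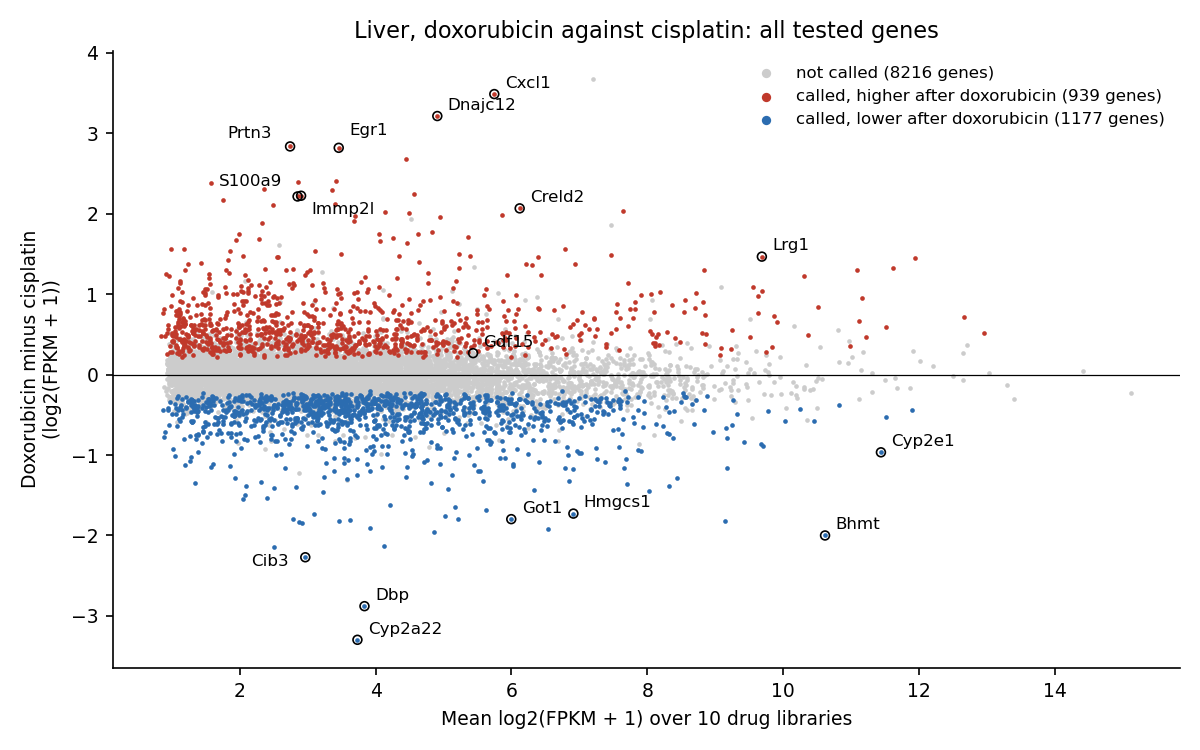
Difference between doxorubicin and cisplatin on the log2(FPKM + 1) scale (vertical axis) against the mean level over the 10 drug libraries (horizontal axis, log2(FPKM + 1)), 1 point per tested gene. Red points are the 939 genes called higher and blue points the 1177 called lower after doxorubicin, and circles mark named genes such as Cxcl1 at 3.49 and Cyp2a22 at -3.30.

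Of Gdf15, Ern1 and Xbp1, the genes closest to the study's question, Xbp1 differed between the drugs. Gdf15 was measured at 34.8, 32.5, 28.8, 64.5 and 39.7 FPKM in cisplatin 1 to 5 and at 57.9, 39.7, 47.5, 33.6 and 58.9 FPKM in doxorubicin 1 to 4 and the unnumbered library. The drug groups overlapped, with cisplatin 4 the highest of all 10, while every drug library lay above the highest saline library at 11.5 FPKM. The difference was 0.27 ± 0.23 (SE, n = 5 and 5; two-sided exact permutation p = 0.294). Ern1, which encodes IRE1α, ranged from 6.38 to 9.85 FPKM after cisplatin and from 4.31 to 12.2 FPKM after doxorubicin, a difference of 0.02 ± 0.19 (exact permutation p = 0.944). Xbp1, whose mRNA is spliced by IRE1α into that of an active transcription factor, was higher after doxorubicin.

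Xbp1 measured 98.2, 82.98, 124, 84.5 and 87.1 FPKM in cisplatin 1 to 5 and 133, 139, 136, 148 and 155 FPKM in the doxorubicin libraries. All 5 doxorubicin values were above all 5 cisplatin values, and cisplatin 3 was the cisplatin library nearest to them. The difference was 0.59 ± 0.10 on the log2 scale, with an exact permutation p of 0.00794, the smallest that 5 against 5 libraries can give (limma adjusted p = 0.000584). Gene-level FPKM does not separate spliced from unspliced Xbp1. The Ern1 level likewise says nothing of the activity of the protein.

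Genes of protein folding in the endoplasmic reticulum were higher after doxorubicin. Of 46 listed and tested genes, 27 were higher and none was lower, with a median difference of 0.49 against -0.02 for all tested genes. Against saline the medians of the list were 0.43 for cisplatin and 0.95 for doxorubicin. Creld2, a secreted chaperone-associated protein, had 36.9, 30.6, 70.1, 20.6 and 23.8 FPKM in cisplatin 1 to 5 and 109, 250, 124, 102 and 165 FPKM in the doxorubicin libraries, with 12.8 to 47.9 FPKM in saline. The drug groups did not overlap, and doxorubicin 2 was the highest of all. Its difference was 2.07 ± 0.36 (limma adjusted p = 0.000692). Dnajb11, a co-chaperone of BiP, rose from 52.1 ± 14.04 FPKM after cisplatin to 90.6 ± 9.07 FPKM after doxorubicin (SD, n = 5 each; difference 0.82), and Spcs2, a signal peptidase subunit, from 37.2 ± 6.47 to 58.5 ± 4.53 FPKM (difference 0.65).

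Cisplatin 3 was the highest cisplatin liver for several chaperone genes. Hspa5, which encodes BiP, had 318, 329.7, 494, 187 and 227 FPKM in cisplatin 1 to 5 and 489.6, 971, 531, 532 and 564 FPKM in the doxorubicin libraries. Cisplatin 3 lay just above doxorubicin 1, the lowest doxorubicin library, and the other 4 cisplatin libraries lay below all 5. The difference was 1.02 ± 0.23 (limma adjusted p = 0.00424). Syvn1, a ubiquitin ligase of endoplasmic reticulum degradation, ran from 34.3 to 113 FPKM after cisplatin and from 84.2 to 217 FPKM after doxorubicin, again with cisplatin 3 and doxorubicin 1 overlapping. Hsp90b1, the chaperone GRP94, averaged 318 ± 73.2 and 564 ± 110.3 FPKM (SD, n = 5 each).

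The promoters of these genes were read for the endoplasmic reticulum stress element, the letters CCAAT and CCACG separated by 9 bases, on either strand. The windows run from 250 bases before to 50 bases after each gene's start (RefSeq, GRCm38.p6), and 8074 of the tested genes had one. The element stood in 9 of 717 windows of genes higher after doxorubicin (1.26%), in 0 of 885 windows of genes lower after doxorubicin, and in 15 of all 8074 (0.186%; 37 of the 27025 genes in the table, 0.137%). The 9 were Acnat2, Alg12, Calr, Creld2, Derl3, Hsp90b1, Hspa5, Pdia6 and Syvn1. The listed folding genes held the element in 9 of 34 windows (26.5%), and Canx and Dnajc3 held it without being called. Each stretch below is 120 bases long and was chosen after its values were seen; capitals mark the element, which is given on the strand of the gene and reads in reverse complement in Creld2.
Creld2: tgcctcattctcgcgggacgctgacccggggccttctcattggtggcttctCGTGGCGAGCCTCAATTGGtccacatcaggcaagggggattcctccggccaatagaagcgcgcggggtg
Hspa5: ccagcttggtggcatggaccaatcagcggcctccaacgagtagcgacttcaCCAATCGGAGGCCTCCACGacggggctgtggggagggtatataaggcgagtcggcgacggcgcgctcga
Syvn1: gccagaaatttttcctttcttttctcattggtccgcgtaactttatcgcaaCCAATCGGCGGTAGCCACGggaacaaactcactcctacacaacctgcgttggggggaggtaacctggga
Hsp90b1: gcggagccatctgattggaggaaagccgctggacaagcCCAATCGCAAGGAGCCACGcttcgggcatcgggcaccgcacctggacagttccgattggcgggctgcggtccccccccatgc
The stretches lie at chr15:88819469-88819588 (+ strand) for Creld2, chr2:34771974-34772093 (+ strand) for Hspa5, chr19:6046481-6046600 (+ strand) for Syvn1 and chr10:86705575-86705694 (- strand) for Hsp90b1. A match is a description of these letters and was not measured as a bound site.

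Interferon-stimulated genes, which restrict viral growth and sense foreign nucleic acid, were higher after doxorubicin in 44 of 50 tested and lower in none. The median difference was 0.85, against medians of -0.02 for cisplatin and 0.88 for doxorubicin relative to saline. Irf7, a transcription factor that amplifies interferon responses, had 26.4, 21.1, 26.2, 25.1 and 22.4 FPKM in cisplatin 1 to 5 and 76.8, 61.9, 66.5, 66.7 and 73.01 FPKM in the doxorubicin libraries, with 18.5 to 24.4 FPKM in saline. The cisplatin and saline livers shared 1 range, and every doxorubicin liver lay above it. The difference was 1.47 ± 0.09 (limma adjusted p = 5.71e-08). Zbp1, a sensor of Z-form nucleic acids, was at 9.25 to 15.9 FPKM after cisplatin and 38.1 to 55.2 FPKM after doxorubicin (difference 1.75). Xaf1 and Cmpk2, 2 further interferon-induced genes, differed by 1.50 and 1.24, and in neither did the drug groups overlap.

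Isg15, a ubiquitin-like protein conjugated to others during interferon responses, measured 12.6, 12.2, 23.2, 16.8 and 11.4 FPKM in cisplatin 1 to 5 and 51.2, 58.4, 54.2, 54.3 and 89.4 FPKM in the doxorubicin libraries. Ifit1, which binds foreign RNA ends, measured 2.75, 2.54, 4.43, 2.81 and 3.15 FPKM and 8.49, 7.198, 5.96, 7.79 and 20.5 FPKM in the same order. The unnumbered doxorubicin library was the highest for both, and the remaining doxorubicin libraries still lay above all cisplatin libraries. Differences were 1.96 ± 0.19 for Isg15 and 1.30 ± 0.23 for Ifit1 (limma adjusted p = 4.3e-06 and 0.000765). Antigen presentation and immunoproteasome genes were higher in 7 of 23 and lower in none, with a median of 0.12. Among them Psmb8, an immunoproteasome subunit, averaged 22.4 ± 2.72 FPKM after cisplatin and 36.5 ± 5.78 FPKM after doxorubicin (SD, n = 5 each), and Tap1, a peptide transporter, 12.1 ± 2.07 and 21.4 ± 2.86 FPKM.

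The core of the interferon-stimulated response element, GAAANNGAA on either strand, was found in 26 of 40 windows of the interferon list (65.0%). It stood in 109 of 717 windows of genes higher after doxorubicin (15.2%), in 48 of 885 of genes lower (5.42%) and in 705 of 8074 tested (8.73%; 9.76% of the whole table). The windows of Irf7, Xaf1 and Cmpk2 held no match. Isg15 and Ifit1 are shown because each held 3 matches, some of them overlapping, and they were chosen after their values were seen; capitals mark the matches inside the stretch on either strand.
Isg15: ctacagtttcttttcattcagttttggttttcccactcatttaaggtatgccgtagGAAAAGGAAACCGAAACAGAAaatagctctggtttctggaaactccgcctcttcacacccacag
Ifit1: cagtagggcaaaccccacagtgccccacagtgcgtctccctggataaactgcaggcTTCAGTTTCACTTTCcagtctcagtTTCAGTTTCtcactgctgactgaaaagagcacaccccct
The stretches lie at chr4:156200833-156200952 (- strand) for Isg15 and chr19:34640724-34640843 (+ strand) for Ifit1.

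**Figure D2:**
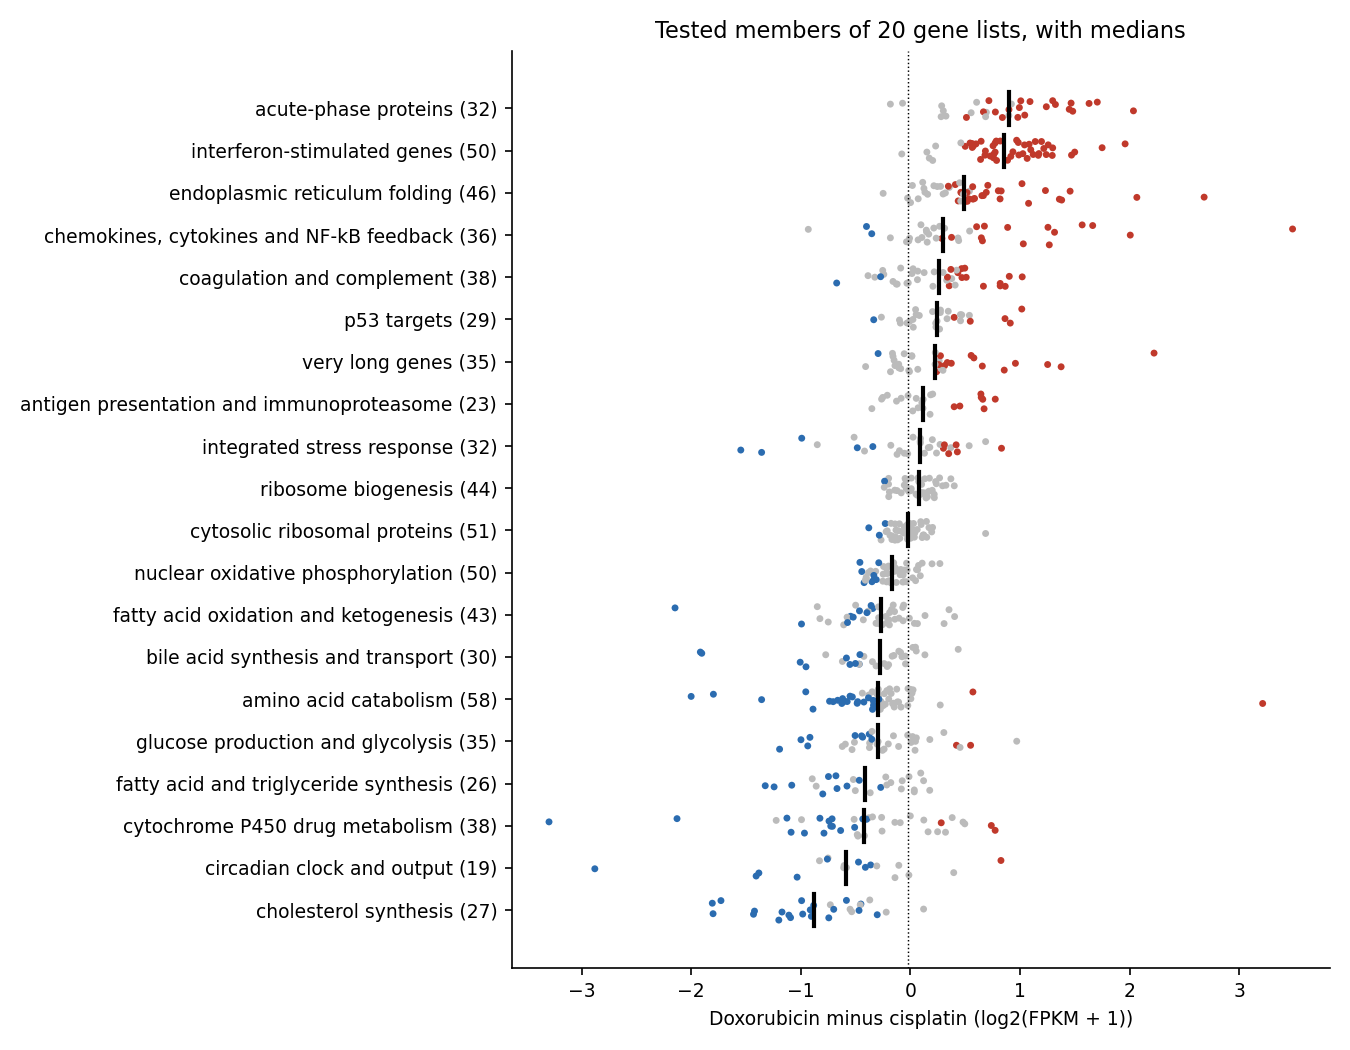
Difference between doxorubicin and cisplatin (horizontal axis, log2(FPKM + 1)) for the tested members of 20 gene lists, with the number tested in brackets. Each point is 1 gene, red where called higher, blue where called lower and grey where not called; black bars are list medians, from 0.90 for acute-phase proteins to -0.88 for cholesterol synthesis, and the dotted line is the median of all tested genes, -0.02.

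Acute-phase proteins, which hepatocytes secrete under cytokine signals, were higher after doxorubicin in 20 of 32 genes and lower in none, with a median difference of 0.90. Relative to saline the list had medians of 0.38 for cisplatin and 1.32 for doxorubicin. Lbp, which binds bacterial lipopolysaccharide, had 53.1, 56.5, 52.4, 51.4 and 64.3 FPKM in cisplatin 1 to 5 and 142, 137, 123, 127 and 132 FPKM in the doxorubicin libraries (difference 1.24 ± 0.11; limma adjusted p = 2.38e-06). Cisplatin livers were within the saline range of 50.3 to 80.4 FPKM, and doxorubicin livers were all above it. Lrg1, a leucine-rich plasma glycoprotein, went from 497 ± 49.3 FPKM after cisplatin to 1372 ± 98.2 FPKM after doxorubicin (SD, n = 5 each). Itih3, a hyaluronan-binding plasma protein, went from 577 ± 59.4 to 1189 ± 98.6 FPKM. Saa1 and Lcn2, both strongly inducible acute-phase genes, overlapped between the drugs. Saa1 had 928, 5224, 867, 861 and 190.1 FPKM in cisplatin 1 to 5 and 844, 2176, 1878, 1040 and 1573 FPKM in the doxorubicin libraries, and Lcn2 219.7, 939.6, 135, 180.2 and 54.9 and 350.2, 514, 287, 281 and 478 FPKM. Cisplatin 2 was the highest of the 10 in both, neither was called (limma adjusted p = 0.704 and 0.329), and both genes were named after their values were seen. Without cisplatin 2 the differences were 1.49 for Lcn2 (limma adjusted p = 0.0439) and 1.23 for Saa1 (limma adjusted p = 0.372).

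Coagulation and complement genes, also made by hepatocytes, were higher in 14 and lower in 2 of 38 (median 0.26). C8a, a component of the membrane attack complex, averaged 204 ± 16.3 FPKM after cisplatin and 416 ± 37.4 FPKM after doxorubicin (SD, n = 5 each; difference 1.02). Hc, complement C5, was higher by 0.82 and C4b by 0.87, without overlap between the drugs. Klkb1, plasma prekallikrein, was lower after doxorubicin (difference -0.67; 65.4 to 75.1 against 36.1 to 58.7 FPKM). Cp, ceruloplasmin, an acute-phase copper ferroxidase, was at 284 ± 17.4 and 488 ± 56.3 FPKM.

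Chemokines and NF-κB feedback genes were higher in 15 and lower in 2 of 36 (median 0.30). Cxcl1, a neutrophil-attracting chemokine on chromosome 5 (GRCm38 chr5:90891245-90893121), had the largest difference of the genes without overlap. It measured 5.72, 5.94, 7.03, 5.76 and 3.79 FPKM in saline 1 to 5, 13.5, 10.2, 13.6, 25.2 and 16.2 FPKM in cisplatin 1 to 5 and 203, 184, 163, 202 and 149 FPKM in the doxorubicin libraries. The 3 groups formed 3 separate ranges, cisplatin above saline and doxorubicin above both. Mean Cxcl1 was 11.5 times as high after doxorubicin as after cisplatin (difference 3.49 ± 0.19; limma adjusted p = 8.27e-09). Ccl7, a monocyte chemokine, was under 1 FPKM in every cisplatin library (0 to 0.322) and 1.6 to 3.05 FPKM after doxorubicin. Ccl6, another chemokine, averaged 2.301 ± 0.291 and 7.24 ± 0.985 FPKM. Sod2, the mitochondrial superoxide dismutase that NF-κB induces, was lower after doxorubicin (difference -0.35).

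Myeloid markers were higher alongside these gene groups, whereas few lymphocyte markers could be tested: 1 of 2 B cell markers was lower (Cd79b, difference -0.40) and 1 of 3 T and NK cell markers was higher (Gzma, 0.52). Of 13 tested Kupffer cell markers, 8 were higher and 1 was lower after doxorubicin (median 0.61). With the replicate number as a block, a fit without the unnumbered doxorubicin library, 5 were higher. Marco, a scavenger receptor of macrophages, had 3.47, 5.7, 3.09, 5.09 and 3.54 FPKM in cisplatin 1 to 5 and 21.7, 27.7, 17.9, 24.2 and 15.98 FPKM in the doxorubicin libraries, with no overlap (difference 2.12 ± 0.22; limma adjusted p = 8.65e-06). Cd5l, a macrophage-secreted apoptosis inhibitor, averaged 14.5 ± 2.45 and 40.03 ± 7.503 FPKM, whereas the iron exporter Slc40a1 was lower after doxorubicin (difference -0.80). The pan-macrophage marker Adgre1 did not pass the filter, at most 1.41 FPKM after cisplatin and 1.61 FPKM after doxorubicin. In bulk tissue, more cells of a type and more RNA per cell cannot be told apart.

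For monocytes and infiltrating macrophages, 9 of 18 listed markers passed the filter and 8 of these were higher, 1 of them under 1 FPKM in every cisplatin library. The summed level of the listed markers ran from 155 to 191 FPKM after cisplatin and from 254 to 370 FPKM after doxorubicin. Most of that sum was Fn1, fibronectin, which hepatocytes also make (118 to 147 and 195 to 289.6 FPKM). Plac8, abundant in inflammatory monocytes, averaged 2.595 ± 0.167 and 5.91 ± 0.815 FPKM (SD, n = 5 each), and Ms4a6c 1.37 ± 0.0413 and 4.09 ± 0.782 FPKM. Only 3 of 15 neutrophil markers passed the filter. The neutrophil list summed to 3.51 to 10.4 FPKM after cisplatin, 27.8 to 42.9 FPKM after doxorubicin and 5.27 to 9.37 FPKM in saline. After doxorubicin most of the neutrophil sum came from the 3 tested markers, S100a8, S100a9 and Csf3r.

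S100a9, a calcium-binding protein of neutrophils and monocytes, had 3.38, 4.01, 1.95, 2.73 and 0.746 FPKM in cisplatin 1 to 5 and 13.7, 15.5, 13.6, 19.02 and 11.8 FPKM in the doxorubicin libraries (difference 2.22 ± 0.22; limma adjusted p = 5.94e-06). The groups did not overlap and the cisplatin and saline livers shared 1 range. S100a8, its partner, differed by 2.11, and Csf3r, the receptor of granulocyte colony-stimulating factor, by 1.30. Prtn3, proteinase 3, was at 0.929 to 2.31 FPKM after cisplatin and 8.74 to 27.6 FPKM after doxorubicin. The other 12 neutrophil markers did not pass the filter. Their means were higher after doxorubicin in 8, among them the chemokine receptor Cxcr2 (0.119 and 0.975 FPKM), Retnlg (0.527 and 1.31 FPKM) and the proteases Mmp9 (0.208 and 0.695 FPKM) and Mmp8 (0.0384 and 0.21 FPKM). Means were lower in 4, namely Ly6g (0.095 and 0.0519 FPKM), Ngp (0.118 and 0.094 FPKM), Camp (0.169 and 0.147 FPKM) and Mpo (0.0162 and 0.0108 FPKM). The granule genes Mpo, Ltf, Camp, Ngp and Elane did not exceed 0.388 FPKM in any drug library. The part of these cells in the chemokine, acute-phase and interferon differences was not tested.

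Dnajc12, a J-domain co-chaperone (chr10:63382443-63408840), was the gene with the smallest adjusted p among those named. It measured 9.92, 6.36, 9.57, 10.3 and 8.87 FPKM in saline 1 to 5, 10.2, 8.47, 10.4, 7.26 and 8.31 FPKM in cisplatin 1 to 5 and 86.5, 92.97, 105, 93.3 and 77.3 FPKM in the doxorubicin libraries. Saline and cisplatin livers shared 1 range, and doxorubicin livers were 10.2 times the cisplatin mean. The difference was 3.22 ± 0.12 (limma adjusted p = 9.87e-11).

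Immediate early genes, transcribed within minutes of a stimulus, were higher in 7 and lower in 1 of 20 (median 0.30). Egr1, a zinc-finger transcription factor, measured 17.9, 7.46, 3.96, 38.2 and 17.1 FPKM in saline 1 to 5, 5.44, 1.102, 2.08, 3.57 and 5.33 FPKM in cisplatin 1 to 5 and 23.1, 48.4, 40.1, 20.7 and 18.96 FPKM in the doxorubicin libraries. The drugs did not overlap, while the saline livers spanned both groups' ranges in part. The difference was 2.82 ± 0.48 (limma adjusted p = 0.000808); relative to saline, cisplatin was at -1.77 (limma adjusted p = 0.0296) and doxorubicin at 1.05 (adjusted p = 0.115). Junb and Fosl2, both AP-1 subunits, differed by 1.33 and 0.88, and Maff, a small MAF protein, by -0.53.

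**Figure D3:**
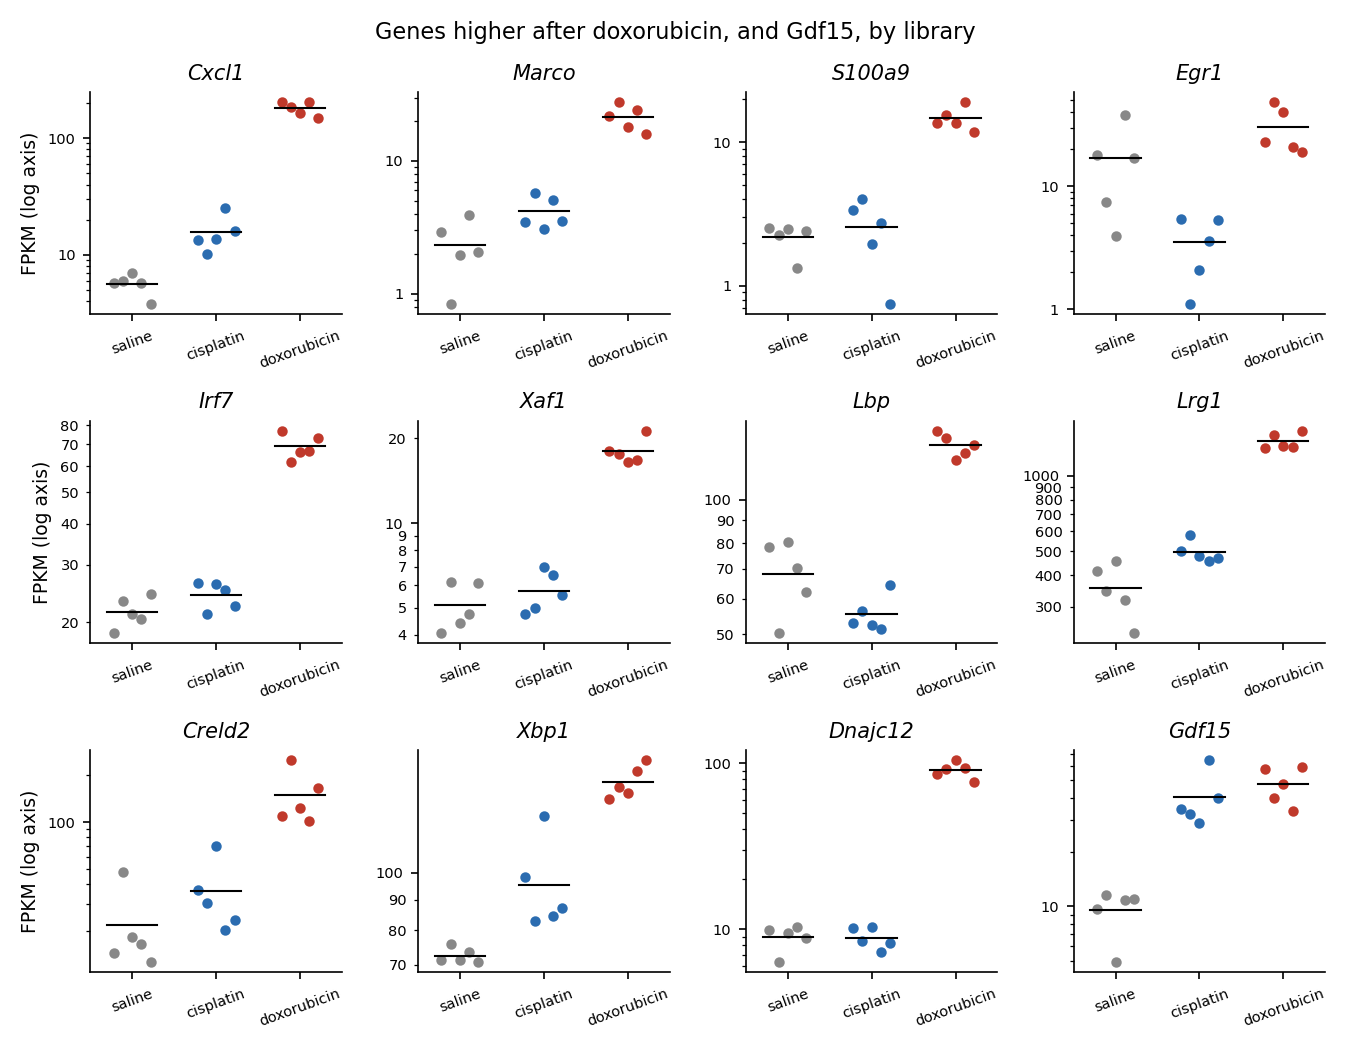
FPKM (vertical log axis) in every saline, cisplatin and doxorubicin library for 11 genes higher after doxorubicin and for Gdf15. Points are single livers in label order and black bars are group means; for Cxcl1 the doxorubicin livers lie at 148.5 to 203 FPKM against 10.2 to 25.2 after cisplatin, whereas the drug groups overlap for Gdf15.

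Cholesterol synthesis genes were lower after doxorubicin than after cisplatin in 20 of 27 and higher in none, with a median difference of -0.88. Relative to saline the list stood at a median of 1.25 for cisplatin and 0.20 for doxorubicin. Hmgcs1, the first committed enzyme of the pathway, measured 77.1, 99.7, 82.6, 54.1 and 116 FPKM in saline 1 to 5, 236, 337, 220.3, 185 and 153 FPKM in cisplatin 1 to 5 and 48.4, 92.1, 61.3, 67.3 and 63.9 FPKM in the doxorubicin libraries. The cisplatin livers were above every saline and doxorubicin liver, and the saline and doxorubicin ranges overlapped. The difference was -1.73 ± 0.22 (limma adjusted p = 4.82e-05). Cyp51, lanosterol demethylase, had 89.5, 104, 68.8, 45.1 and 50.8 FPKM in cisplatin 1 to 5 and 14.1, 24.7, 18.5, 23.04 and 15.97 FPKM in the doxorubicin libraries, with 10.4 to 24.9 FPKM in saline. Idi1, isopentenyl-diphosphate isomerase, differed by -1.81, Msmo1, a sterol methyl oxidase, by -1.43, and Fdft1, squalene synthase, by -1.20. None of these 5 genes had overlapping drug groups.

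The sterol regulatory element letters TCACCCCAC were found in 15 of 885 windows of genes lower after doxorubicin (1.69%), in 5 of 717 of genes higher (0.697%) and in 66 of 8074 tested (0.817%; 0.614% of the whole table). Of the 19 cholesterol genes with a window, 1 held them, Hmgcs1. Its stretch is shown for that reason, with the match in capitals.
Hmgcs1: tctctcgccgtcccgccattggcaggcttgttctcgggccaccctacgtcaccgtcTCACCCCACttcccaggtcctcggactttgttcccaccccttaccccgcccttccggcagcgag
The stretch lies at chr13:119690158-119690277 (+ strand) for Hmgcs1.

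Fatty acid and triglyceride synthesis genes were lower in 10 and higher in none of 26 (median -0.42). That count was 6 without cisplatin 1, 2 or 3 or the unnumbered doxorubicin library, each left out alone. It was 5 with the replicate number as a block, which also leaves out the unnumbered library. Elovl5, an elongase of polyunsaturated fatty acids, had 247, 177, 154, 164 and 179 FPKM in cisplatin 1 to 5 and 86.5, 79.04, 70.5, 78.6 and 50.7 FPKM in the doxorubicin libraries (difference -1.32 ± 0.17; limma adjusted p = 5.74e-05). Cisplatin 1 was the highest, and the 5 doxorubicin values lay below all others. Acss2, cytosolic acetyl-CoA synthetase, differed by -1.24 and Fads2, a desaturase, by -1.08. Fatty acid oxidation and ketogenesis genes were lower in 9 and higher in none of 43 (median -0.27). That is 20.9% lower, beside 11.4% of all tested genes lower and 20.5% called in either direction. Acot3, a peroxisomal thioesterase, fell from 11.9 ± 5.47 FPKM after cisplatin to 1.801 ± 0.875 FPKM after doxorubicin (SD, n = 5 each).

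Lipoprotein genes went both ways, with 4 higher and 6 lower of 27 (median -0.12). Apoa4, an apolipoprotein, had 1325, 911, 719, 1012 and 546 FPKM in cisplatin 1 to 5 and 487, 568, 378, 238 and 340.3 FPKM in the doxorubicin libraries (difference -1.16 ± 0.23; limma adjusted p = 0.00175), and these groups overlapped.

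The amino acid catabolism list was lower after doxorubicin in 23 of 58 genes and higher in 2, with a median of -0.29. The 2 higher include the co-chaperone Dnajc12, which was placed on this list. Bhmt, which remethylates homocysteine with betaine, measured 3461, 3029, 2586, 3393 and 3322 FPKM in cisplatin 1 to 5 and 1184, 978, 642, 629 and 635 FPKM in the doxorubicin libraries, with 2241 to 3168 FPKM in saline. All cisplatin and saline livers were above all doxorubicin livers, among which doxorubicin 1 and 2 were the higher. The mean after cisplatin was 3.88 times that after doxorubicin (difference -2.0 ± 0.17; limma adjusted p = 1.16e-06). Got1, cytosolic aspartate aminotransferase, had 106, 131, 97.4, 107 and 158 FPKM and 30.3, 29.4, 27.5, 49.5 and 33.4 FPKM in the same order (difference -1.80). Cth, cystathionine gamma-lyase, averaged 335 ± 59.1 and 129 ± 12.03 FPKM (SD, n = 5 each). Urea cycle and glutamine genes were lower in 7 and higher in 1 of 16 (median -0.28), the higher one being Glul, glutamine synthetase (difference 0.50). Relative to saline, Glul was lower after cisplatin (-0.62, limma adjusted p = 0.00363) and not called after doxorubicin (-0.12, limma adjusted p = 0.49). Slc38a4, an amino acid transporter, was the lower one with the smallest adjusted p (difference -0.66).

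The integrated stress response, in which ATF4 induces amino acid synthesis and transport genes, was split: 6 of 32 genes were higher, 5 were lower and the median was 0.09. Trib3, a pseudokinase target of ATF4, had 3.799, 6.43, 6.02, 7.95 and 6.69 FPKM in cisplatin 1 to 5 and 1.17, 1.62, 1.64, 1.65 and 1.03 FPKM in the doxorubicin libraries. Doxorubicin livers were all below the cisplatin and saline livers (6.36 to 8.17 FPKM in saline). The difference was -1.55 ± 0.14 (limma adjusted p = 2.16e-06). Gpt2, an alanine aminotransferase, was also lower (difference -0.99), and Wars and Mars, the tryptophanyl and methionyl tRNA synthetases, were higher by 0.83 and 0.31. Wars is also induced by interferon gamma.

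Glucose metabolism genes were lower in 9 and higher in 2 of 35 (median -0.29). Slc2a2, the glucose transporter GLUT2, had 71.7, 72.7, 72.1, 60.8 and 62.7 FPKM in cisplatin 1 to 5 and 30.5, 25.7, 27.8, 33.8 and 28.2 FPKM in the doxorubicin libraries, with no overlap (difference -1.19 ± 0.10; limma adjusted p = 1.16e-06). Gys2, liver glycogen synthase, averaged 58.3 ± 8.36 and 28.5 ± 1.79 FPKM. Pklr, liver pyruvate kinase, and Ppp1r3b, a glycogen-targeting phosphatase subunit, were lower, with differences of -0.94 and -0.92. For Slc2a2 and Gys2 the saline ranges of 64.3 to 88.1 FPKM and 56.2 to 74.7 FPKM overlapped those of cisplatin. Nuclear genes of oxidative phosphorylation were lower in 8 and higher in none of 50 (median -0.16), a share lower of 16% beside 11.4% of all tested genes; Sdhb and Atp5c1, subunits of complex II and of ATP synthase, differed by -0.44 and -0.46.

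Cytochrome P450 genes of drug metabolism were lower in 15 and higher in 3 of 38 (median -0.43). Cyp2a22 had the largest negative difference of all genes without overlap, with 44.9, 16.9, 50.2, 99.4 and 28.8 FPKM in cisplatin 1 to 5 and 5.75, 1.64, 4.14, 3.69 and 2.19 FPKM in the doxorubicin libraries. Saline livers ran from 7.08 to 55.8 FPKM, and cisplatin 4 was the highest of the 15. The difference was -3.30 ± 0.51 (limma adjusted p = 0.000356). Cyp2e1, which oxidises ethanol and paracetamol, averaged 3906 ± 489.7 FPKM after cisplatin and 1997 ± 211 FPKM after doxorubicin (SD, n = 5 each; difference -0.97). Cyp2c37 and Cyp2c69 differed by -1.09 and -2.13, whereas Cyp1a2 was higher after doxorubicin than after cisplatin by 0.74. Relative to saline, Cyp1a2 was lower after cisplatin (-0.81, limma adjusted p = 0.00074) and not called after doxorubicin (-0.07, limma adjusted p = 0.711). The Cyp2a and Cyp2c genes have close copies, so the split of reads among them is uncertain.

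Conjugation enzymes were higher in 7 and lower in 13 of 42 (median -0.19). Gsta1, a glutathione transferase, was listed with the NRF2 targets and not among these conjugation enzymes. Gsta1 had 2.51, 4.08, 2.57, 2.16 and 0.529 FPKM in cisplatin 1 to 5 and 43.8, 7.65, 8.49, 15.01 and 20.2 FPKM in the doxorubicin libraries. Doxorubicin 1 was the highest and no values overlapped (difference 2.40 ± 0.38, limma adjusted p = 0.000328). Gstm1, a further transferase, averaged 1659 ± 238 and 3253 ± 769.5 FPKM. Sult1a1, a sulfotransferase, and Gstt2 were lower, with differences of -1.06 and -1.12. NRF2 targets were higher in 8 and lower in 3 of 28 (median 0.10), and reads of Gsta1 and Gstm1 can be shared with near-identical family members.

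Bile acid synthesis and transport genes were lower in 9 and higher in none of 30 (median -0.28). Slco1a4, an organic anion transporter, had 26.2, 26.6, 24.9, 35.6 and 28.97 FPKM in cisplatin 1 to 5 and 9.45, 3.51, 6.38, 11.8 and 5.51 FPKM in the doxorubicin libraries (difference -1.90 ± 0.25; limma adjusted p = 7.69e-05). No values overlapped between the drugs. Slc10a1, the bile acid uptake carrier NTCP, averaged 334 ± 44.6 and 172 ± 24.7 FPKM, and Akr1d1, a steroid reductase of bile acid synthesis, differed by -1.01.

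Markers of the hepatocyte zones did not move as 1 group. Among 14 pericentral markers 3 were higher and 3 lower (median 0.11), and among 14 periportal markers 1 was higher and 4 lower (median -0.32). Oat, a pericentral aminotransferase, averaged 520.3 ± 58.99 FPKM after cisplatin and 199.5 ± 33.5 FPKM after doxorubicin, while pericentral Glul was higher after doxorubicin than after cisplatin. Of 19 sinusoidal endothelial markers none was called in either direction, with a median of 0.03.

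**Figure D4:**
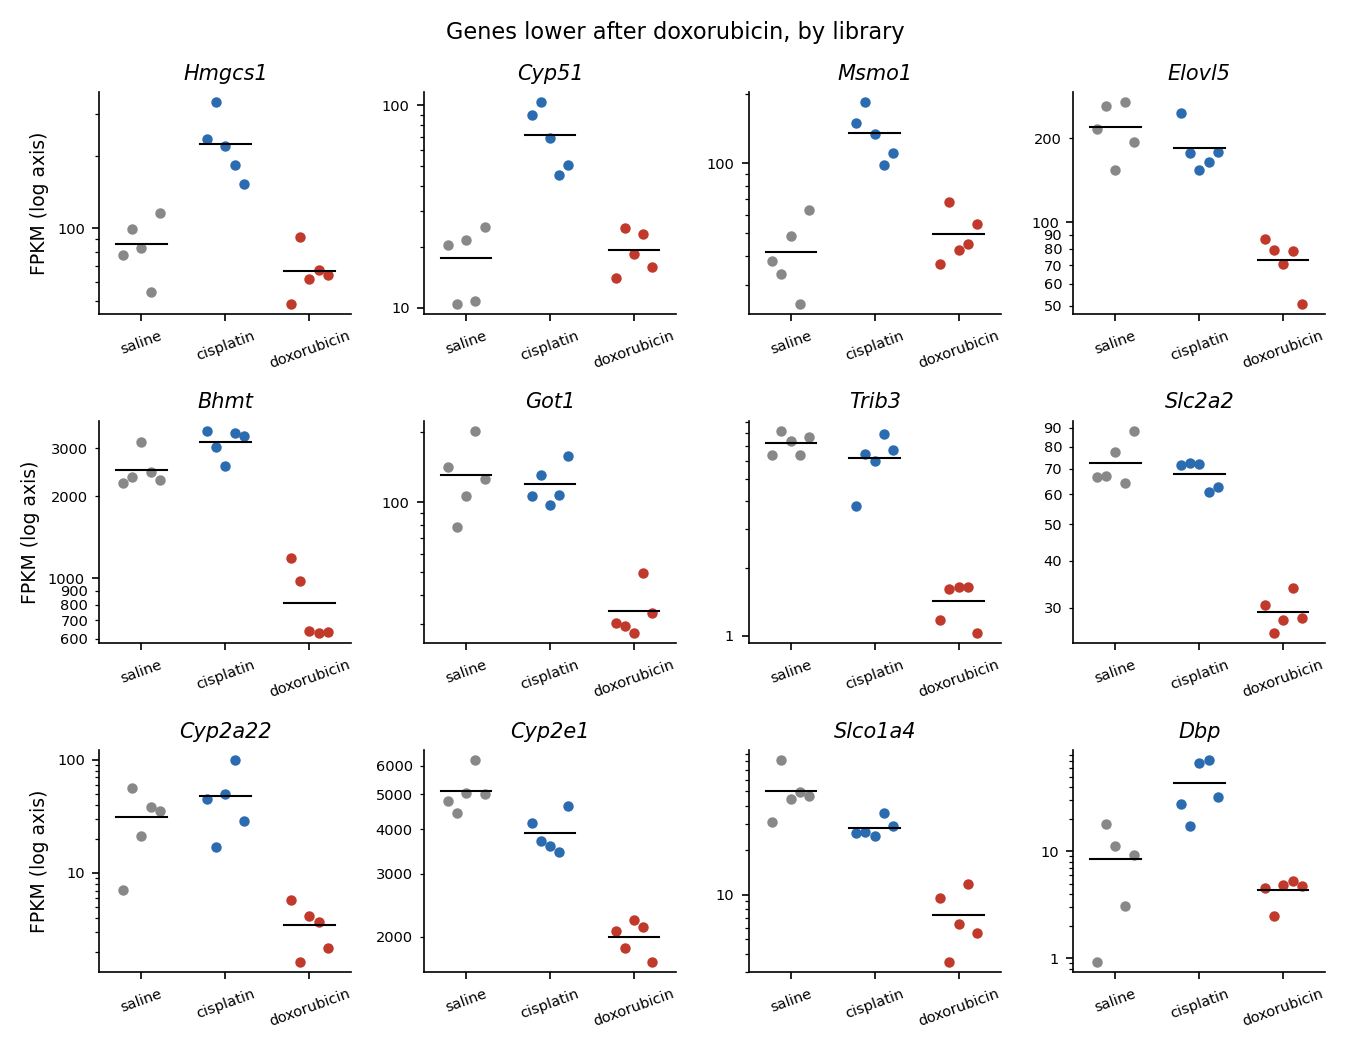
FPKM (vertical log axis) in every saline, cisplatin and doxorubicin library for 12 genes lower after doxorubicin than after cisplatin. Points are single livers in label order and black bars are group means; cisplatin stands above both other groups for Hmgcs1 (152.7 to 337 FPKM against 54.1 to 115.6 in saline), whereas for Trib3 and Bhmt doxorubicin stands below both.

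Circadian clock and output genes were lower in 8 and higher in 1 of 19 (median -0.58). Dbp, a PAR-type transcription factor whose mRNA has a strong daily rhythm, measured 0.922, 18.2, 11.3, 3.06 and 9.196 FPKM in saline 1 to 5, 27.9, 17.5, 66.7, 71.4 and 32.3 FPKM in cisplatin 1 to 5 and 4.51, 2.51, 4.86, 5.24 and 4.72 FPKM in the doxorubicin libraries. The drugs did not overlap. Saline 2 lay just inside the cisplatin range, the other 4 saline livers were below every cisplatin liver, and the saline values ran from below to above the doxorubicin range. The difference was -2.88 ± 0.53 (limma adjusted p = 0.00147); relative to saline, cisplatin was at 2.44 (limma adjusted p = 0.00923) and doxorubicin at -0.44 (adjusted p = 0.567). Per3, a period gene, differed by -1.41, and Nfil3, a repressor that opposes Dbp, was higher by 0.83. The labels give no hour of injection or collection, so drug and time of day cannot be told apart for these genes.

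Targets of p53, which both drugs activate in many tissues, were called in either direction in 20.7%, beside 20.5% of all tested genes. Of 29 tested, 5 were higher (17.2%, beside 9.09% of all tested genes) and 1 was lower (3.45%, beside 11.4%). The median was 0.24, against medians of 0.93 for cisplatin and 1.14 for doxorubicin relative to saline. Without cisplatin 4 the number higher was 8. Eda2r, a receptor of the TNF family, had 1.16, 0.666, 0.821, 1.68 and 0.469 FPKM in cisplatin 1 to 5 and 3.12, 1.86, 2.38, 2.71 and 2.48 FPKM in the doxorubicin libraries, without overlap (difference 0.86 ± 0.14; limma adjusted p = 0.000315). Fas, a death receptor, averaged 20.02 ± 1.52 and 29.8 ± 3.17 FPKM (SD, n = 5 each), and 16.2 to 23.5 FPKM in saline.

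DNA repair genes were higher in 4 and lower in 3 of 42, near the share of all tested genes (median -0.01). Ung, uracil DNA glycosylase, had 3.42, 3.31, 4.56, 4.46 and 2.78 FPKM in cisplatin 1 to 5 and 8.74, 10.6, 9.86, 8.63 and 8.71 FPKM in the doxorubicin libraries (difference 1.14 ± 0.15; limma adjusted p = 5.21e-05). Xrcc4, of the end-joining pathway, differed by 0.87. In the list of topoisomerases and anthracycline-metabolising enzymes 4 of 21 were higher and 6 lower (median -0.05). The 6 lower include Aco1, an aconitase that belongs to neither class (difference -0.57). Top1mt, the mitochondrial topoisomerase, averaged 19.3 ± 2.67 and 38.2 ± 8.63 FPKM. Akr1c14 and Akr1c19, aldo-keto reductases, were lower, with differences of -0.93 and -1.35. Tk1, thymidine kinase of S phase, was at 28.2, 22.1, 36.3, 43.3 and 40.2 FPKM after cisplatin and 8.502, 11.4, 15.5, 15.4 and 16.5 FPKM after doxorubicin, without overlap. Of 18 tested cell cycle genes 2 were higher and 3 lower, 27.8% beside 20.5% of all tested genes.

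Genes were also grouped by their length. Tested genes spanning over 300 kb from first to last exon numbered 131, of which 44 (33.6%) were higher and 12 (9.16%) lower after doxorubicin, with a median difference of 0.17. The 44 include 9 genes under 1 FPKM in every cisplatin library; without such genes 35 of 122 (28.7%) were higher. In the 4 shorter classes 7.01% to 11.5% were higher, and medians ran from -0.05 to 0.01. Relative to saline the longest class had medians of -0.35 for cisplatin and -0.22 for doxorubicin. Immp2l, a mitochondrial inner membrane peptidase subunit gene of 931.5 kb (chr12:41024061-41955588), measured 22.1, 29.7, 27.3, 26.6 and 29.04 FPKM in saline 1 to 5, 3.74, 2.08, 1.64, 2.12 and 3.12 FPKM in cisplatin 1 to 5 and 11.6, 14.4, 15.3, 17.2 and 17.96 FPKM in the doxorubicin libraries. The 3 groups formed 3 separate ranges, with cisplatin lowest. The difference was 2.22 ± 0.15 (limma adjusted p = 1.1e-07).

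Wwox, an oxidoreductase gene of 913.1 kb, kept the same order with 3.31 to 4.39 FPKM in saline, 0.342 to 0.648 FPKM after cisplatin and 1.29 to 2.54 FPKM after doxorubicin (difference 0.86). Cadps2 and Cmss1, of 578.4 and 304.9 kb, were under 1 FPKM in every cisplatin library and at 1.48 to 2.27 and 2.21 to 3.54 FPKM after doxorubicin. Their saline ranges of 1.11 to 1.73 and 1.82 to 2.73 FPKM overlapped those of doxorubicin. Relative to saline, cisplatin was at -1.02 and -1.19 and doxorubicin at 0.23 and 0.19 (limma adjusted p = 0.0666 and 0.28 for doxorubicin). Exoc4, an exocyst subunit gene of 724.9 kb, had another order: 1.199 to 2.29 FPKM in saline, 2.94 to 4.16 after cisplatin and 6.09 to 9.55 after doxorubicin. In a separate list of very long genes, 35 of 52 passed the filter, and 14 of these were higher and 1 lower. The 14 include 5 that were under 1 FPKM in every cisplatin library, Wwox, Cadps2 and Cmss1 among them, and 9 of the other 30 were higher. The number higher was 8 without cisplatin 1, and 9 without doxorubicin 4 or the unnumbered doxorubicin library. It was 7 with the replicate number as a block, which also leaves out the unnumbered library. It was 2 where a mean of at least 5 FPKM was required, which removes low genes. The low levels of several of these genes coincide with the depth gap between the drugs, and 13 of the list were higher when reads were thinned to equal depth.

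**Figure D5:**
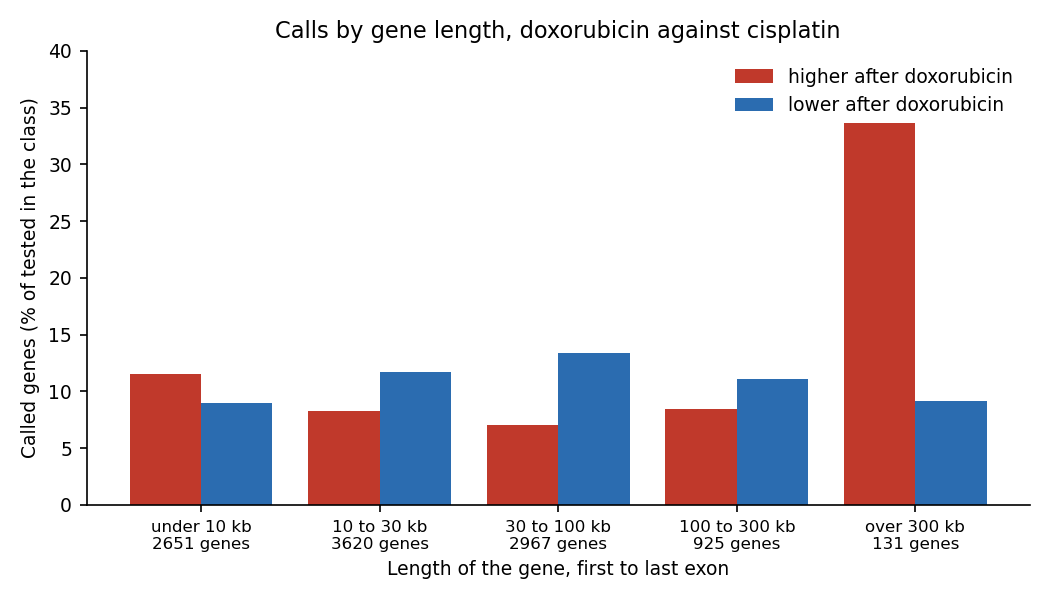
Percentage of tested genes called higher (red) or lower (blue) after doxorubicin than after cisplatin, in 5 classes of gene length from first to last exon, with the number of genes under each class. The share higher is 33.6% in the class over 300 kb and 7.01% to 11.5% in the others.

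Haemoglobin transcripts, which report residual blood or immature red cells, were low after both drugs. The summed erythroid markers were 316 to 518 FPKM in saline, 40.7 to 60.5 FPKM after cisplatin and 49.6 to 280 FPKM after doxorubicin. Hba-a1 had 14.97, 10.4, 4.52, 10.9 and 10.5 FPKM in cisplatin 1 to 5 and 30.3, 102, 25.98, 12.99 and 39.4 FPKM in the doxorubicin libraries, overlapping, with doxorubicin 2 the highest. The difference was 1.70 ± 0.40 (limma adjusted p = 0.00672), and reads of Hba-a1 can be shared with its near-identical copy. Of 6 tested erythroid markers 3 were higher after doxorubicin, and 1 without saline 2 and the unnumbered doxorubicin library.

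Few members of the housekeeping lists were called. Cytosolic ribosomal protein genes were lower in 3 and higher in none of 51 (median -0.02), ribosome biogenesis genes lower in 1 of 44 (median 0.08), and proteasome genes higher in 1 of 31 (median 0.05).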

How the data were processed

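Livers were profiled by poly(A) RNA-seq. Per the submitters' processing notes, reads were handled with Trim Galore 0.4.1, HISAT2 2.0.1 and featureCounts 1.4.6 on GRCm38 (mm10). The authors deposited FPKM per gene, and no column of their table was left unused (0 columns). Depth was recovered from the FPKM steps with GENCODE exon lengths, which gave whole reads per gene. Values were tested as log2(FPKM + 1) with limma 3.58.1 (R 4.3.3; trended, robust empirical Bayes) in 1 fit of 15 libraries and 3 groups, with Benjamini-Hochberg adjustment at 0.05; differences on that scale understate changes of low genes. The test was checked on simulated reads. Single genes were also compared by two-sided exact permutation.

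Genes named were Gdf15, Ern1, Xbp1, Immp2l and Wwox, the 15 largest differences in each direction among called genes without overlap, leaving out unnamed gene models, and up to 4 called members per list and direction with the smallest adjusted p, of which some are not reported here; others are marked as chosen after their values were seen, which also holds for Hspa5, Syvn1, Hsp90b1 and the other genes named for a promoter match. Members and lists were chosen with earlier results of these data known. Of 21878 symbols, 20461 matched the RefSeq gene annotation, which gave positions and lengths of genes, directly and 883 by synonym. Alternatives covered pseudocounts, filters, scalings, thinned reads, library omissions and blocking. The number of libraries limits precision, and strand was not stated, so overlapping and near-identical genes are uncertain.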

Additional observations from a re-analysis of the deposited data

Results flagged for a closer look

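Within each group of 5 livers, a value standing far from the other 4 (gap over range above Dixon's 95% limit) was looked for in 120 of the named genes, 360 gene and group pairs, of which 40 were found. Chance gives about 1 in 20 such pairs. Saline 1 stood apart as the highest for Gzma (1.67 FPKM, next 0.946) and Mup17 (2550 FPKM, next 253). Saline 2 stood apart as the highest for Acot3 (36.5 FPKM, next 13.1), Alg12 (11 FPKM, next 6.99), Creld2 (47.9 FPKM, next 18.4), Csf3r (2.49 FPKM, next 1.43), Hsp90b1 (247 FPKM, next 197) and Syvn1 (102 FPKM, next 43.6). Saline 2 stood apart as the lowest for Akr1c19 (10.7 FPKM, next 26.1). Saline 3 stood apart as the highest for Bhmt (3170 FPKM, next 2450). Saline 3 stood apart as the lowest for Gdf15 (4.92 FPKM, next 9.61). Saline 4 stood apart as the lowest for S100a9 (1.32 FPKM, next 2.24). Saline 5 stood apart as the highest for Gstm1 (1890 FPKM, next 1280), Junb (29.4 FPKM, next 19.8) and Maff (3.79 FPKM, next 2.46). Cisplatin 1 stood apart as the highest for Elovl5 (247 FPKM, next 179). Cisplatin 2 stood apart as the highest for Lcn2 (940 FPKM, next 220) and Saa1 (5220 FPKM, next 928). Cisplatin 2 stood apart as the lowest for Klkb1 (65.4 FPKM, next 73). Cisplatin 3 stood apart as the highest for Derl3 (22.3 FPKM, next 7.4), Syvn1 (113 FPKM, next 47.8) and Wars (11.4 FPKM, next 8.8). Cisplatin 3 stood apart as the lowest for Scara5 (0.218 FPKM, next 0.681). Cisplatin 4 stood apart as the highest for Hc (190 FPKM, next 167) and Tap1 (15.8 FPKM, next 11.7). Cisplatin 4 stood apart as the lowest for Nfil3 (8.38 FPKM, next 11.8) and Sod2 (41.4 FPKM, next 46.9). Cisplatin 5 stood apart as the highest for Mup17 (233 FPKM, next 62.5). Doxorubicin 1 stood apart as the highest for Glul (414 FPKM, next 333). Doxorubicin 1 stood apart as the lowest for Etnppl (8.92 FPKM, next 14). Doxorubicin 2 stood apart as the highest for Dnajb11 (106 FPKM, next 89.1) and Hspa5 (971 FPKM, next 564). Doxorubicin 2 stood apart as the lowest for Dbp (2.51 FPKM, next 4.51). Doxorubicin 4 stood apart as the highest for Cth (150 FPKM, next 127) and Got1 (49.5 FPKM, next 33.4). The unnumbered doxorubicin library stood apart as the highest for Cp (586 FPKM, next 480), Ifit1 (20.5 FPKM, next 8.49), Isg15 (89.4 FPKM, next 58.4), Psmb8 (46.4 FPKM, next 35.7) and Sod2 (43.2 FPKM, next 35.9). Whether these gaps belong to the animals or to the libraries was not tested.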

How the results depend on the processing

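The 939 higher and 1177 lower calls stayed within 1.5 times under pseudocounts of 0.1 and 0.5, no filter, a filter of 1 FPKM in 8 of 10 drug libraries, 4 other scalings, a fit of the 10 drug libraries, empirical Bayes without trend and thinned reads. Leaving out 1 library at a time gave 732 to 1166 higher and 904 to 1488 lower calls, the highest without saline 2. A mean FPKM of at least 5 left 612 higher calls among 6644 genes, fewer genes being tested. An adjusted p of 0.01 gave 538 and 602, and a difference of at least 1 gave 135 and 87. The fit with the replicate number as a block also left out the unnumbered doxorubicin library. It gave 554 and 689, and 1199 of the 2116 calls kept. Without that library and without the block, the calls were 806 and 1058, with 1730 kept. Same-numbered cisplatin and doxorubicin libraries correlated at 0.285, 0.353, 0.086 and -0.02 for numbers 1 to 4. Of these, 0.353 and 0.285 were the highest of all pairs. The 16 differently numbered pairs correlated at -0.309 to 0.262. Since numbers 3 and 4 stayed under 0.1 and no label ties a number to a litter or day, the libraries were not taken as paired; the cause of the fewer calls was not tested. Scaling changed the higher share of calls from 44.4% to at most 51.7% (equal medians). For Gdf15, Ern1 and Xbp1 the exact tests kept their side of 0.05 with a pseudocount of 0.1 and for medians. Of the named genes' values under the alternatives, 6361 kept direction and side of the threshold, 555 lost the call, 3 gained it and 0 reversed. With the block, cholesterol synthesis had 13 genes lower, fatty acid and triglyceride synthesis 5, cytochrome P450 9 and the clock list 3, and very long genes had 7 and Kupffer markers 5 higher. With the mean filter of 5, which tests fewer genes, the interferon list had 28 higher, chemokines 9, and monocyte markers, very long genes and p53 targets 2 each; without a filter monocyte markers had 15 higher. Depth limits genes near 1 FPKM: 1 read in 1 kb was worth 0.0197 to 0.0396 FPKM.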

Other observations

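Further genes among the largest differences lay outside the lists, apart from Car3. Car3 was on the adipocyte list, of which 2 markers were tested and 1 was lower. Slfn4, a Schlafen gene of myeloid cells, was under 1 FPKM in every cisplatin library and at 5.69, 5.41, 8.702, 6.34 and 3.79 FPKM in the doxorubicin libraries. Scara5, a ferritin-binding scavenger receptor, had 0.682, 0.700, 0.218, 0.681 and 0.698 FPKM in cisplatin 1 to 5 and 6.84, 11.5, 3.08, 3.65 and 8.71 FPKM in the doxorubicin libraries. Isyna1, which makes inositol phosphate from glucose phosphate, was higher by 2.24 ± 0.21 (limma adjusted p = 3.63e-06) with all doxorubicin livers above all cisplatin livers. Slc41a2, a magnesium transporter, was higher by 2.30. In the other direction Cib3, Hectd2 and Tmie differed by -2.27, -1.84 and -1.80, and Car3, a carbonic anhydrase of liver, fat and muscle, averaged 1080 ± 172 FPKM after cisplatin and 313 ± 90.1 FPKM after doxorubicin (SD, n = 5 each). Etnppl, a phospholyase of ethanolamine phosphate, was at 42.2 to 76.7 and 8.92 to 15.9 FPKM.

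The largest difference of any tested gene was not called. Mup17, one of the major urinary proteins that male liver secretes, had 2550, 129.6, 253, 34.5 and 199.9 FPKM in saline 1 to 5, 51.2, 62.5, 2.304, 44.7 and 233 FPKM in cisplatin 1 to 5 and 67.1, 2898, 974, 100.1 and 2065 FPKM in the doxorubicin libraries. The groups overlapped, and the difference was 3.68 ± 1.39 (limma adjusted p = 0.0806); it was 4.42 without doxorubicin 1 (limma adjusted p = 0.0441), and the adjusted p was 0.0496 without the trended, robust variance. Mup genes are near-identical copies, so the split of reads among them is uncertain, and Mup17 was named after its values were seen. Genes of the growth hormone axis, which sets male Mup expression, were lower after doxorubicin in 5 of 27 and higher in none (median -0.07). The share called was 18.5%, all of it lower, beside 20.5% called and 11.4% lower among all tested genes. Iron and heme genes were higher in 6 and lower in 5 of 27 (median 0.08), metal handling and drug transporter genes higher in 3 and lower in 4 of 16 (median 0.12), and glucocorticoid-responsive genes higher in 2 and lower in 1 of 20 (median -0.03). The shares called were 40.7%, 43.8% and 15% in that order, beside 20.5% of all tested genes. Among marker lists, stellate cells had 1 higher and 1 lower of 14 and cholangiocytes 1 lower of 4.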
